A study of Homo sapiens with 16 samples.

Results

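Genes that the sterol regulatory element-binding proteins (SREBPs) switch on for sterol and fatty acid synthesis were followed across 16 RNA sequencing libraries of THP-1, a human acute monocytic leukemia cell line that becomes macrophage-like when treated with phorbol-12-myristate-13-acetate (PMA). The 32 members were taken by gene symbol from a list of textbook SREBP targets, and each symbol matched 1 Ensembl row of the 60676 in the count table and passed the filter on low counts, which 16503 genes passed. They comprised 18 enzymes of sterol synthesis, 9 enzymes of fatty acid synthesis and 5 regulators and sterol carriers. The choice used no expression value of these libraries, although earlier results of the same data were known when it was made.

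The cells carried 1 of 4 short hairpins, delivered by a lentiviral pLKO.1 vector and kept under puromycin: shUHRF1, shDNMT1, shDNMT3B, or the non-targeting shNC. Each line was treated for 48 h with 100 ng/ml PMA or with its solvent DMSO, which gave 8 groups of 2 libraries. UHRF1 brings the maintenance DNA methyltransferase DNMT1 to newly copied DNA, and DNMT3B is a de novo DNA methyltransferase. The comparisons ask how PMA moved these genes in each line and how the lines with a hairpin against a methylation gene differed from shNC before and after PMA. No label says that the 2 libraries of a group came from separate cultures, so the p-values measure only the spread between these libraries, which may be technical.

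SREBPs are made as precursors held in the membrane of the endoplasmic reticulum by the escort protein SCAP. When membrane cholesterol is plentiful, SCAP binds an INSIG protein and stays there. When cholesterol is short, SCAP carries the precursor to the Golgi, where it is cut, and the freed part enters the nucleus and activates transcription. The product of SREBF2 acts mainly on the sterol arm, from acetyl-CoA through mevalonate, squalene and lanosterol to cholesterol. The main product of SREBF1 acts on the fatty acid arm. INSIG1 and SREBF2 are themselves targets, so the arm carries its own feedback. Monocytes that become macrophages are known for a large traffic of cholesterol, taken up from particles and engulfed cells.

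The labels needed care before the results. In 12 of the 16 records the description named another condition than the title, and each column of the table was assigned by the condition that its own name gives. Total counts ran from 13883556 to 23151864. Mitochondrially encoded genes held 24.4% to 29.0% of the counts in the DMSO libraries numbered 1 and 9.86% to 14.5% in those numbered 2, against 7.71% to 19.5% and 3.92% to 9.35% in the PMA libraries. Markers of monocytes and macrophages were at 1 CPM (counts scaled to library size) or more for 10 or 11 of 11 genes in every group. Markers of other cell types summed to 517 CPM in shNC DMSO replicate 1, led by hemoglobin genes, against 30.2 CPM in shNC DMSO replicate 2, and the comparisons with shNC DMSO are therefore also given without that library. The messages aimed at by the hairpins were not lower than in shNC by the test. UHRF1 had a log2 fold change in the line labelled shUHRF1 over shNC of −0.36 ± 0.26 (± SE, edgeR, adjusted p = 0.605) in DMSO and 0.87 ± 0.29 (± SE, edgeR, adjusted p = 0.129) in PMA. DNMT1 in the line labelled shDNMT1 had −0.25 ± 0.30 (± SE, edgeR, adjusted p = 0.787) in DMSO and 0.45 ± 0.30 (± SE, edgeR, adjusted p = 0.376) in PMA. DNMT3B in the line labelled shDNMT3B had −0.48 ± 0.19 (± SE, edgeR, adjusted p = 0.212) in DMSO and was higher than in shNC in PMA, by 1.06 ± 0.23 (± SE, edgeR, adjusted p = 0.00688). Protein levels of the targets, for which the study ran western blots, were not analysed here. Every direction below is that of the line labelled with a hairpin.

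SREBPs bind a sterol regulatory element, usually next to boxes for NF-Y and Sp1, and the stretch before the start of 6 members is printed to show these letters. RefSeq promoter windows, from 250 bases before to 50 after the start on GRCh38.p14, were found for 28 of the 32 members, some with several starts. The letters TCACNCCAC on either strand were in a window of 1 of the 28 genes (SREBF2), against 1.39% of all 11736 tested genes with a window. The shorter TCACNCCA, which lies within it, was in 3 of the 28 (SREBF2, MVK and MSMO1), against 4.6% of all. The NF-Y letters CCAAT were in 22 of the 28, against 42.8% of all, with 13 of 15 sterol enzymes, 5 of 8 fatty acid enzymes and 4 of 5 regulators and carriers. The Sp1 letters GGGCGG were in 27 of the 28, against 74.5% of all, and the E-box CACGTG was in 3, against 12.2% of all. A match describes the letters only, and a window without one says nothing about binding. The 200 bases before the start follow, 5′ to 3′ on the strand of the gene, in lower case with these motifs on either strand in capitals. They lie at chr22:41832905-41833104 (plus strand) for SREBF2, chr7:155297678-155297877 (plus) for INSIG1, chr12:109573594-109573793 (plus) for MVK, chr4:165327469-165327668 (plus) for MSMO1, chr5:43313413-43313612 (minus) for HMGCS1 and chr10:100347033-100347232 (plus) for SCD. SREBF2 and INSIG1 are shown as regulators, MVK, MSMO1 and HMGCS1 as sterol enzymes, and SCD as a fatty acid enzyme beside them. The 6 include all 3 members with TCACNCCA, so they do not stand for the members as a set. IDI1 and DHCR7 were called lower than in shNC in all 3 lines with a hairpin against a methylation gene, in both treatments. Their windows held no TCACNCCA, and they are not printed. SREBF2 itself spans chr22:41833105-41907306, INSIG1 chr7:155297776-155310235, MSMO1 chr4:165327667-165343164 and SCD chr10:100347233-100364826 in the hg38 annotation of GENCODE. MVK spans chr12:109573255-109598125 and HMGCS1 chr5:43287470-43313512. The printed stretch of MVK thus lies wholly inside its GENCODE span, and those of INSIG1, MSMO1 and HMGCS1 lie partly inside theirs.
SREBF2: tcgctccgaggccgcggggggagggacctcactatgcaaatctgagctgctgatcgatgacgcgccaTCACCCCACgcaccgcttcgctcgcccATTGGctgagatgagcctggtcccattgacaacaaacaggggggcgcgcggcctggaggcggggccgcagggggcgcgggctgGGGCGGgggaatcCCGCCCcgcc
INSIG1: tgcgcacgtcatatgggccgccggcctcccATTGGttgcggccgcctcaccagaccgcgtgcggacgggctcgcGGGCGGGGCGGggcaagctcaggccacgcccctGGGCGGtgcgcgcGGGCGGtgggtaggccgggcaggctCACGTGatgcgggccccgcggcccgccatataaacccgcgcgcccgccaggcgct
MVK: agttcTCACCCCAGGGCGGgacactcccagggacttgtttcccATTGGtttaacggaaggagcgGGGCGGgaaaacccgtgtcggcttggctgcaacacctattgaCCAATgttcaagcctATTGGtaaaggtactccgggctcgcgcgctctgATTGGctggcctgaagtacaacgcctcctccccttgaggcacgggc
MSMO1: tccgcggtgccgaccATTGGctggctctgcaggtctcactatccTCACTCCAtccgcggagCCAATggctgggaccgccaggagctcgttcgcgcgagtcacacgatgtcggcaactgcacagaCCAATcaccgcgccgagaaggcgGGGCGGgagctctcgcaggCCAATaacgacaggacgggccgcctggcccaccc
HMGCS1: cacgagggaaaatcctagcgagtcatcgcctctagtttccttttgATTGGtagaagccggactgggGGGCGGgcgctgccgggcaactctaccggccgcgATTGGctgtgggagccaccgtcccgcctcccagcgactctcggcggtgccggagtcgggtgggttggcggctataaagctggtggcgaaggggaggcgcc
SCD: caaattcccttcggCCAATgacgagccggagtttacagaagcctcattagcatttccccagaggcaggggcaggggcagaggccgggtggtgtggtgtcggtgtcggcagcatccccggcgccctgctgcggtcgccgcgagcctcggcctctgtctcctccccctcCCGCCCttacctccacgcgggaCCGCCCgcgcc
The element of SREBF2 lay 133 to 125 bases before its start, that of MVK 195 to 188 and that of MSMO1 156 to 149. MVK and MSMO1 each held several CCAAT boxes, and INSIG1 held the E-box.

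Levels are CPM after TMM scaling, replicate 1 before replicate 2, and genes are compared with each other only per kilobase of exon. In shNC cells in DMSO, the mean level per kilobase was highest for FDPS, the farnesyl diphosphate synthase (72.6), and EBP, a sterol isomerase (68.6), whose 2 libraries differed more from each other than the 2 genes did. SCD, the desaturase that makes oleate, followed at 48.8. ACAT2, the cytosolic thiolase that opens the mevalonate route, stood at 46.0, the squalene synthase FDFT1 at 42.3, the citrate lyase ACLY at 42.1 and INSIG1 at 39.9 CPM per kilobase. At the low end stood mevalonate kinase MVK (1.37), the phosphatidate phosphatase LPIN1 (1.05) and the elongase ELOVL6 (0.0618). ELOVL6 stayed under 0.7 CPM in every library and had no count in shDNMT1 DMSO or shNC PMA, so it is given only by bounds. A bound sets the empty group to 3 counts in all and takes the count of the other group without its spread.

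**Figure D1:**
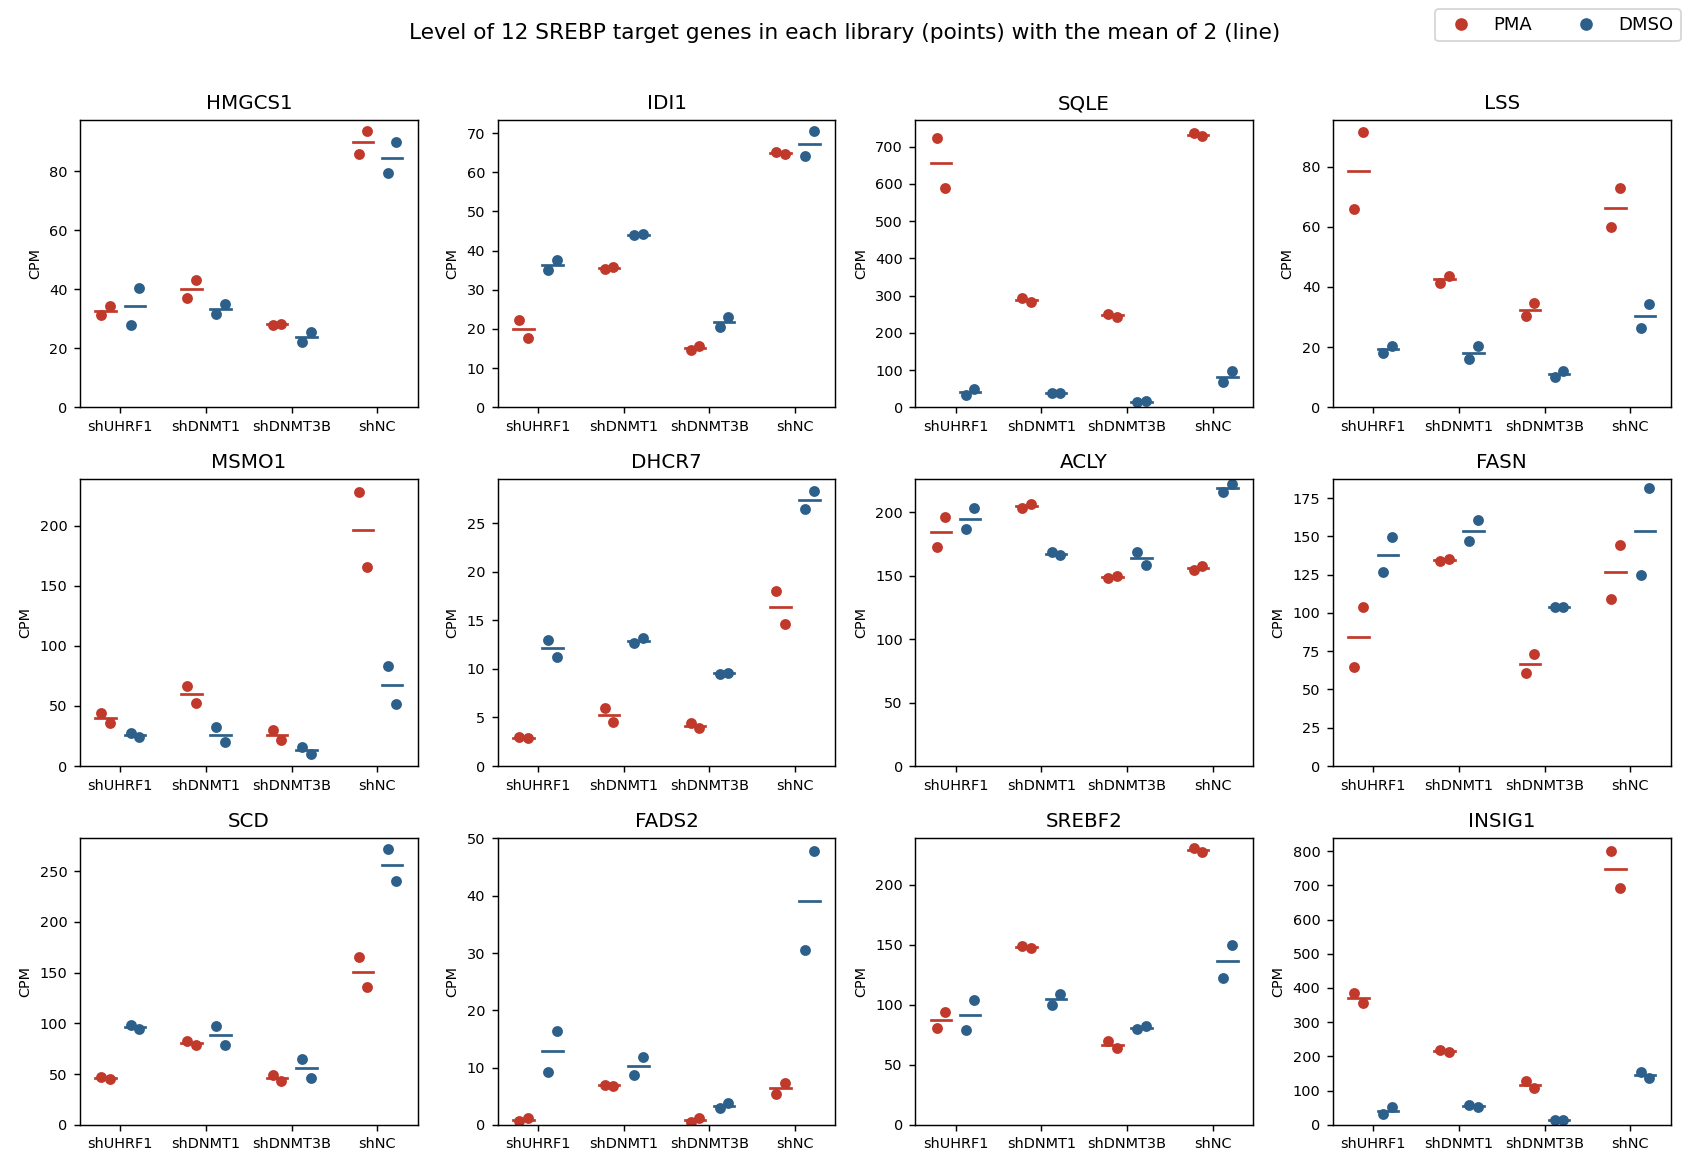
Level in CPM (vertical axes, linear from 0) of 12 SREBP target genes in the lines shUHRF1, shDNMT1, shDNMT3B and shNC (horizontal axes). Points are single libraries and lines the mean of 2, with PMA (red) left of DMSO (blue). SQLE, LSS and INSIG1 lie higher in PMA than in DMSO in all 4 lines, DHCR7 lies lower, and in both treatments HMGCS1, IDI1, MSMO1, DHCR7, SCD and INSIG1 lie lower in each line labelled shUHRF1, shDNMT1 or shDNMT3B than in shNC.

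PMA did not move the sterol arm as a block: SQLE and LSS, which act one after the other at the middle of the route, were higher in PMA in all 4 lines, while ACAT2, MVK and FDPS before them and TM7SF2 and DHCR7 after them were lower in all 4. Of all 32 members, edgeR's quasi-likelihood test with Benjamini-Hochberg adjustment called 6 higher and 13 lower in PMA in shNC cells, where 28.4% and 26.0% of all tested genes were called. In shUHRF1 cells 3 were higher and 17 lower (all genes 29.4% and 25.5%). In shDNMT1 cells 8 were higher and 10 lower (all genes 28.6% and 24.1%). In shDNMT3B cells 7 were higher and 12 lower (all genes 25.2% and 19.7%). The shares called higher were near or under the background in every line, and those called lower were above it. Calls in the same direction in all 4 lines, which share no library in this comparison, were found for 3 members upward (SQLE, LSS and INSIG1) and 8 downward (ACAT2, MVK, FDPS, TM7SF2, DHCR7, ACACA, SREBF1 and TMEM97), and 0 members had opposite calls in 2 lines. With the replicate number as a block, MSMO1, LPIN1 and STARD4 were also called higher and EBP and FADS2 lower in all 4 lines. SC5D (higher in shDNMT1 and shNC, lower in shUHRF1) and ACLY (higher in shDNMT1, lower in shNC) then had opposite calls. The share of all tested genes with calls in the same direction in all 4 lines was not counted. The counts of shared calls therefore name genes and do not set the members apart.

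SQLE, the squalene epoxidase that carries out the first oxygen-requiring step, had 735 and 729 CPM in shNC PMA libraries against 66.7 and 96.5 CPM in shNC DMSO libraries, on the log2 scale a change of 3.16 ± 0.24 (± SE, edgeR, adjusted p = 2.61e-07). In shUHRF1 cells it had 722 and 588 CPM in PMA against 31.8 and 48.1 CPM in DMSO (4.03 ± 0.25 (± SE, edgeR, adjusted p = 3.86e-08)). Every PMA library stood far above every DMSO library, and the fitted values were 2.92 ± 0.24 (± SE, edgeR, adjusted p = 6.03e-07) in shDNMT1 and 4.07 ± 0.26 (± SE, edgeR, adjusted p = 6.65e-08) in shDNMT3B cells. LSS, which closes the ring to lanosterol, had 59.8 and 72.9 CPM in shNC PMA against 26.5 and 34.4 CPM in shNC DMSO libraries (1.12 ± 0.21 (± SE, edgeR, adjusted p = 5.20e-04)), and its groups did not overlap in any line. Its log2 fold changes were 2.03, 1.23 and 1.56 in shUHRF1, shDNMT1 and shDNMT3B cells. MSMO1, a methylsterol oxidase further along the route, had 228 and 165 CPM in shNC PMA against 83.1 and 51.5 CPM in shNC DMSO libraries (1.55 ± 0.31 (± SE, edgeR, adjusted p = 0.00101)). It was also called higher in shDNMT1 and shDNMT3B cells, by 1.19 and 0.98, and had 0.64 in shUHRF1 cells (adjusted p = 0.0998 by edgeR, and 2.26e-04 with the replicate number as a block).

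The lower members lay both before SQLE and after LSS in the route. ACAT2 had 38.8 and 35.2 CPM in shNC PMA against 135 and 108 CPM in shNC DMSO libraries, on the log2 scale a change of −1.71 ± 0.23 (± SE, edgeR, adjusted p = 4.35e-05). DHCR7, the last reductase of the Kandutsch-Russell branch, had 18 and 14.7 CPM in shNC PMA against 26.5 and 28.3 CPM in shNC DMSO libraries (−0.74 ± 0.18 (± SE, edgeR, adjusted p = 0.00311)). In both genes all PMA libraries lay below all DMSO libraries of the same line. MVK fell by 1.04 to 1.62 and FDPS by 0.94 to 1.55 on the log2 scale over the 4 lines. TM7SF2, a sterol reductase, fell by 0.67 to 1.36. HMGCS1, the HMG-CoA synthase, was not called in any line, with 85.9 and 93.8 CPM in shNC PMA against 79.4 and 90.0 CPM in shNC DMSO libraries (0.09 ± 0.18 (± SE, edgeR, adjusted p = 0.701)). The decarboxylase MVD, the sterol dehydrogenase NSDHL and the lanosterol demethylase CYP51A1 were likewise called in no line, although with the block CYP51A1 was called higher in shDNMT3B and shNC cells. The isomerase IDI1 fell in shUHRF1 (by 0.86) and shDNMT3B cells (by 0.53), and in shNC cells its log2 fold change was −0.05 ± 0.14 (± SE, edgeR, adjusted p = 0.774). FDFT1, HSD17B7 and SC5D were called lower in shUHRF1 cells, by 0.67, 0.75 and 0.53. PMVK, the phosphomevalonate kinase, was called lower in shDNMT1 and shDNMT3B cells, and EBP in shDNMT1 cells. The block added calls of PMVK in shNC and IDI1 in shDNMT1 cells, both lower.

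In the fatty acid arm the calls were mostly downward in shNC (1 higher, 6 lower) and shUHRF1 cells (0 and 6). In shDNMT1 cells 2 of the 9 were higher and 1 lower, and in shDNMT3B cells 2 and 3 (shares of all genes as above). ACACA, the acetyl-CoA carboxylase that commits acetyl units to fatty acids, fell in all 4 lines, by 0.96 to 1.31 on the log2 scale. FADS2, a desaturase of polyunsaturated fatty acids, had 5.41 and 7.29 CPM in shNC PMA against 30.5 and 47.8 CPM in shNC DMSO libraries (−2.63 ± 0.35 (± SE, edgeR, adjusted p = 4.01e-05)). The FADS2 groups did not overlap in any line. It was called lower in shNC, shUHRF1 and shDNMT3B cells, and in shDNMT1 cells, with 6.93 and 6.84 CPM in PMA against 8.74 and 11.8 CPM in DMSO, its log2 fold change was −0.58 ± 0.34 (± SE, edgeR, adjusted p = 0.174, and 0.0168 with the block). Its locus overlaps that of FADS1, so reads of the pair may be shared. FADS1 fell by 0.77 in shNC and 1.46 in shUHRF1 cells, and with the block also in shDNMT1 cells. SCD had 165 and 136 CPM in shNC PMA against 271 and 240.0 CPM in shNC DMSO libraries (−0.76 ± 0.18 (± SE, edgeR, adjusted p = 0.00322)), fell by 1.07 in shUHRF1 cells, and was not called in shDNMT1 (−0.13 ± 0.18 (± SE, edgeR, adjusted p = 0.555)) or shDNMT3B cells (−0.27 ± 0.18 (± SE, edgeR, adjusted p = 0.247)). FASN, the fatty acid synthase, was called lower in shUHRF1 and shDNMT3B cells. ACLY, which makes cytosolic acetyl-CoA from citrate, fell in shNC cells alone by the call (−0.49 ± 0.14 (± SE, edgeR, adjusted p = 0.00792)). LPIN1 was the member of this arm that was higher in PMA in shNC (1.06), shDNMT1 (1.34) and shDNMT3B cells (1.07), and ACSS2, an acetyl-CoA synthetase, was called higher in shDNMT1 and shDNMT3B cells and, with the block, in shUHRF1 cells. ELOVL6 had 0 counts over both shNC PMA libraries and 17 over both shNC DMSO libraries, at least 4.93-fold lower when the empty group is set to 3 counts in all.

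The regulators split. INSIG1, the feedback protein that holds SCAP back, had 800.2 and 693 CPM in shNC PMA against 154 and 137 CPM in shNC DMSO libraries, on the log2 scale a change of 2.36 ± 0.22 (± SE, edgeR, adjusted p = 1.37e-06). In shDNMT3B cells it had 129 and 106 CPM in PMA against 15.5 and 14.4 CPM in DMSO (2.98 ± 0.23 (± SE, edgeR, adjusted p = 3.49e-07)). All PMA libraries stood above the DMSO libraries of their line, and shUHRF1 and shDNMT1 cells gave 3.14 and 1.96. SREBF2 had 231 and 227 CPM in shNC PMA against 123 and 149.7 CPM in shNC DMSO libraries (0.75 ± 0.16 (± SE, edgeR, adjusted p = 0.00175)). In shDNMT3B cells it had 69.6 and 64.0 CPM in PMA against 79.7 and 82.3 CPM in DMSO (−0.28 ± 0.16 (± SE, edgeR, adjusted p = 0.185)). The message was higher in PMA in shNC and shDNMT1 cells (0.50) by the call, and in the 2 other lines it was not called. SREBF1 fell in all 4 lines, by 0.56 to 1.13. STARD4, a cytosolic carrier of cholesterol, was called higher in shDNMT1 (1.97) and shDNMT3B cells (1.56). TMEM97, an endoplasmic reticulum protein that limits the lysosomal cholesterol exporter NPC1, had 10.5 and 7.15 CPM in shNC PMA against 63.0 and 45.5 CPM in shNC DMSO libraries (−2.61 ± 0.27 (± SE, edgeR, adjusted p = 4.55e-06)).

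Medians put the arms side by side. The median log2 fold change of the 18 sterol enzymes in PMA over DMSO was −0.60 in shUHRF1, −0.08 in shDNMT1, 0.07 in shDNMT3B and −0.04 in shNC cells. Among the 9 fatty acid enzymes it was −1.07, −0.13, −0.32 and −0.76 in the same lines, where the median of all tested genes was −0.01, 0.01, 0.02 and −0.00. Without ELOVL6 the fatty acid medians were −0.89, −0.16, −0.30 and −0.63. The fatty acid median was the lower one in shUHRF1, shDNMT3B and shNC cells, and remained so with any 1 library left out. In shDNMT1 cells the medians lay close together and their order turned, with a fatty acid median of 0.03 and a sterol median of −0.03 without shDNMT1 DMSO replicate 1, −0.13 and −0.20 without shDNMT1 DMSO replicate 2, and −0.22 and −0.36 without shDNMT1 PMA replicate 1. Summed levels gave another picture of the sterol arm, since SQLE held a large part of the sum. The 18 sterol enzymes summed to 1866 and 1726 CPM in shNC PMA against 1375 and 1243 CPM in shNC DMSO libraries, and SQLE made up 30.1% to 57.8% of this sum in the 8 PMA libraries against 2.19% to 7.77% in the 8 DMSO libraries. Without SQLE and LSS, a choice made after seeing the data, the sum was 1071 and 924 CPM in shNC PMA against 1282 and 1112 CPM in shNC DMSO libraries. The 9 fatty acid enzymes summed to 536 and 557 CPM in shNC PMA against 771 and 841 CPM in shNC DMSO libraries. In bulk samples, a change in the make-up of the culture and a change of RNA per cell cannot be told apart.

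**Figure D2:**
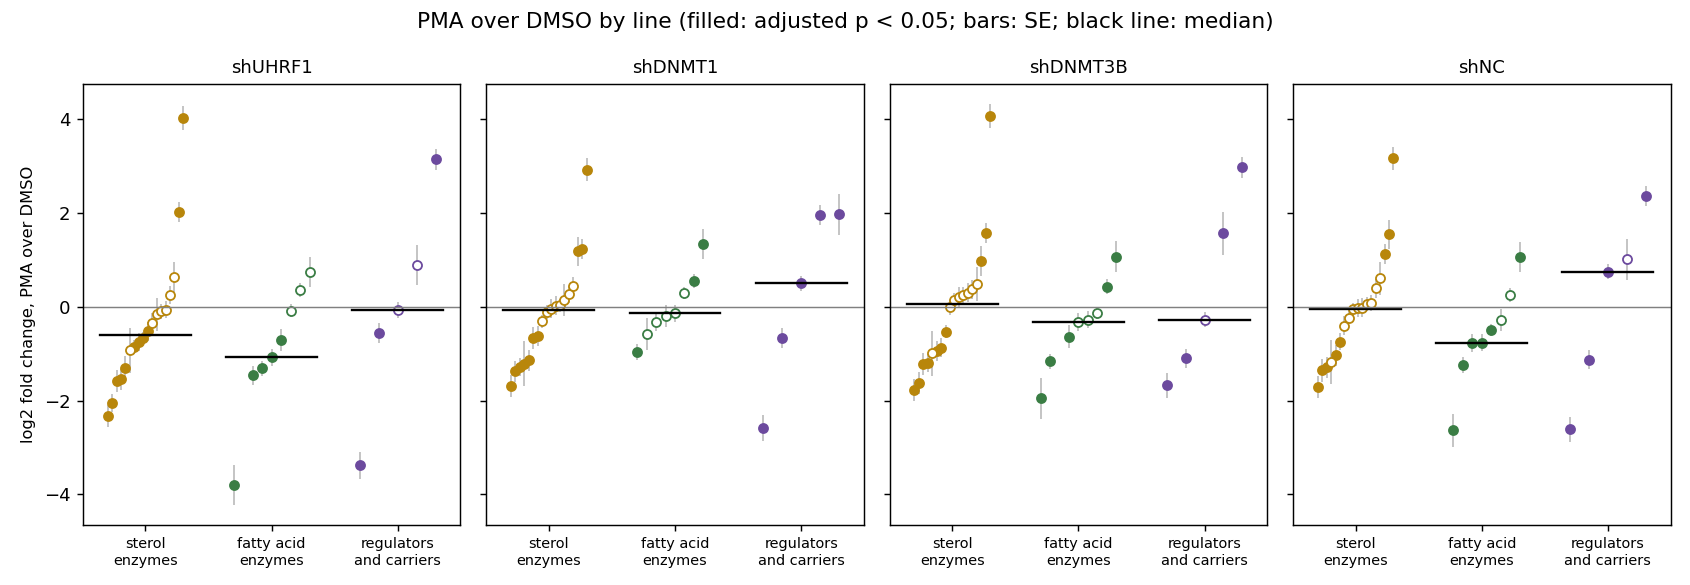
Log2 fold change in PMA over DMSO (vertical axis) of the sterol enzymes, the fatty acid enzymes and the regulators and carriers in the lines shUHRF1, shDNMT1, shDNMT3B and shNC (panels). Points are genes with their SE, filled where the edgeR adjusted p was under 0.05. Black lines are arm medians over all members, and ELOVL6 is not drawn. The highest points of the sterol arm are SQLE at 3.16 in shNC and 4.07 in shDNMT3B cells, far above sterol medians that lie between −0.60 and 0.07.

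**Figure D3:**
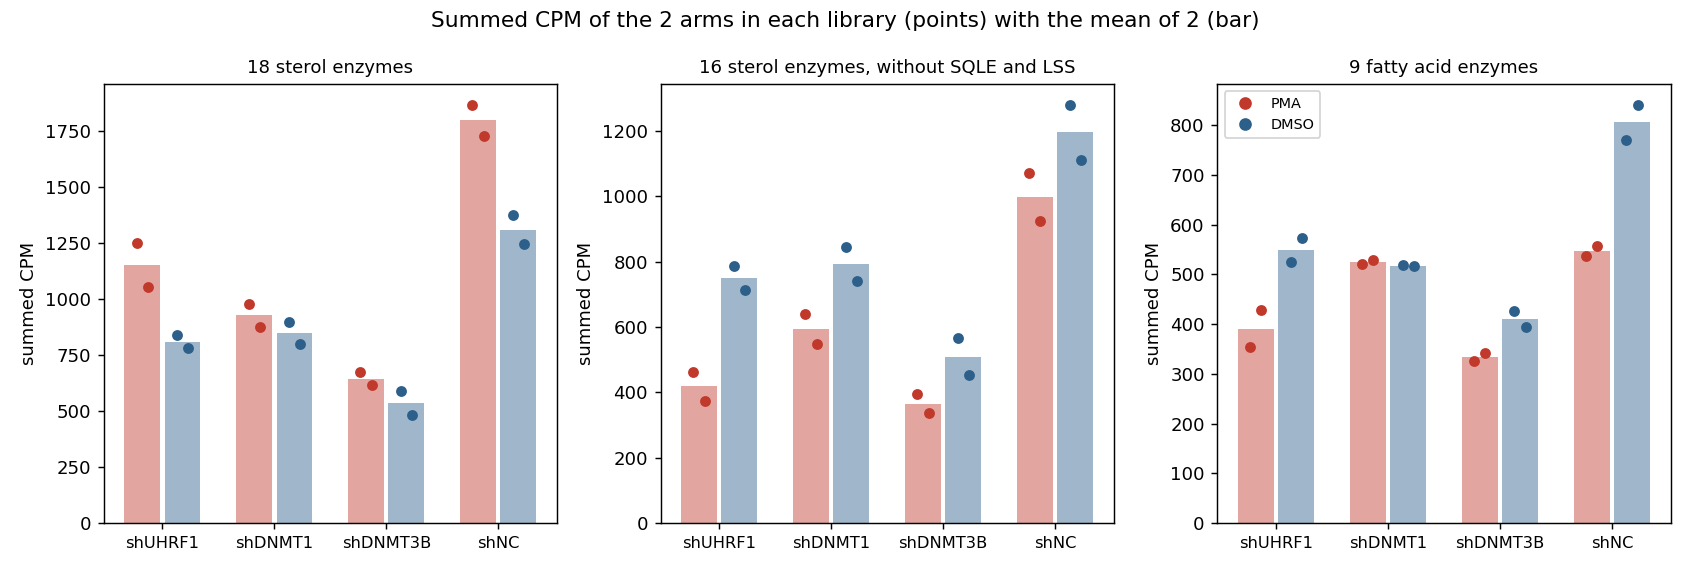
Summed CPM per library (vertical axes, from 0) of the 18 sterol enzymes, of the 16 without SQLE and LSS, and of the 9 fatty acid enzymes, by line (horizontal axes). Points are libraries and bars the mean of 2, with PMA (red) left of DMSO (blue). With SQLE and LSS the mean sum is higher in PMA in every line, and without them it is lower in PMA in every line.

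The count of PMA calls moved by over 1.5 times in some directions when 1 library was left out. In shDNMT1 cells 6 members were called lower without shDNMT1 PMA replicate 2, and 5 were called higher without shDNMT1 PMA replicate 1. In shDNMT3B cells 4 were called higher without shDNMT3B DMSO replicate 1 or without shDNMT3B PMA replicate 2. In shNC cells, without shNC DMSO replicate 1, 5 members were higher and 13 lower. Upper-quartile scaling lowered the median log2 fold change of all genes to −0.31 in shUHRF1, −0.25 in shDNMT1, −0.22 in shDNMT3B and −0.29 in shNC cells, against −0.01 to 0.02 with TMM. Member calls were then 3 higher and 21 lower in shUHRF1, 6 and 13 in shDNMT1, 4 and 16 in shDNMT3B, and 5 and 16 in shNC cells, and all genes shifted the same way, with 3696 higher and 5609 lower in shNC cells against 4688 and 4295. The sterol median of shDNMT3B cells was −0.17 under that scaling, and −0.06 without shDNMT3B DMSO replicate 1, both below 0. With the replicate block the calls were 9 higher and 15 lower in shNC, 7 and 18 in shUHRF1, 10 and 13 in shDNMT1, and 8 and 13 in shDNMT3B cells. Of the 16503 tested genes the block called 5699 higher and 5377 lower in shNC and 5834 and 5370 in shUHRF1 cells. In shDNMT1 cells it called 5677 and 5119, and in shDNMT3B cells 5357 and 4533.

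Before PMA, SREBP targets stood lower in each line labelled shUHRF1, shDNMT1 or shDNMT3B than in shNC, with the most calls in shDNMT3B. In shUHRF1 DMSO over shNC DMSO, 8 of the 32 members were called lower, where 1.15% of all tested genes were. In shDNMT1 the count was 12 (all genes 3.39%), and in shDNMT3B it was 22 (all genes 2.89%). With the replicate number as a block the counts were 22, 20 and 27. That fit called 1134, 1523 and 1882 of the 16503 tested genes lower in the same lines. The block added ACAT2, MVK, MVD, FDPS, SQLE, LSS, CYP51A1, MSMO1, NSDHL, EBP, SC5D, FADS1, SREBF2 and TMEM97 in shUHRF1. It added ACAT2, MVK, FDPS, LSS, CYP51A1, TM7SF2, ACLY and SREBF2 in shDNMT1, and EBP, ACLY, FASN, LPIN1 and TMEM97 in shDNMT3B. None was called higher in any of the 3 comparisons by edgeR, where 28, 94 and 267 of the 16503 tested genes were. Such a 0 therefore does not set the members apart. At an unadjusted p under 0.05, 0 were higher, and DESeq2 called 0 higher. The log2 fold change was negative for 31 of 32 members in each line, and for 8912, 8958 and 8606 of the 16503 tested genes. The 3 comparisons share the 2 shNC DMSO libraries, so they are not independent of each other.

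Of the 18 sterol enzymes, 4 were called lower in shUHRF1, 6 in shDNMT1 and 15 in shDNMT3B cells. Of the 9 fatty acid enzymes, 2, 4 and 4 were called lower in the same lines. The called share was larger in the sterol arm in shDNMT3B alone. HMGCS1 had 27.9 and 40.5 CPM in shUHRF1 DMSO, 31.6 and 35.1 CPM in shDNMT1 DMSO and 22.1 and 25.4 CPM in shDNMT3B DMSO libraries, against 79.4 and 90.0 CPM in shNC DMSO libraries. All 6 lay below both shNC libraries, and the log2 fold change in shDNMT3B was −1.83 ± 0.18 (± SE, edgeR, adjusted p = 6.94e-05). FDFT1, at the branch where mevalonate products are committed to sterols, had 111 and 126 CPM in shUHRF1 DMSO, 122 and 132 CPM in shDNMT1 DMSO and 55.3 and 63.0 CPM in shDNMT3B DMSO libraries, against 198 and 232 CPM in shNC DMSO libraries. It was called lower in all 3 lines, with −0.86 ± 0.14 (± SE, edgeR, adjusted p = 0.00907), −0.76 ± 0.14 (± SE, edgeR, adjusted p = 0.00848) and −1.86 ± 0.15 (± SE, edgeR, adjusted p = 7.88e-06). IDI1 and DHCR7 were also called in all 3, IDI1 with −0.89, −0.61 and −1.63 and DHCR7 with −1.18, −1.08 and −1.52. SQLE had 12.9 and 16.4 CPM in shDNMT3B DMSO against 66.7 and 96.5 CPM in shNC DMSO libraries (−2.48 ± 0.24 (± SE, edgeR, adjusted p = 5.67e-05)), and MSMO1 had 15.8 and 10.3 CPM in shDNMT3B DMSO against 83.1 and 51.5 CPM in shNC DMSO libraries (−2.37 ± 0.33 (± SE, edgeR, adjusted p = 9.20e-04)). Both were also called in shDNMT1, and in shUHRF1 they had −1.03 and −1.39 (adjusted p = 0.0501 and 0.0524 by edgeR, with the block 5.40e-04 and 1.37e-07).

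Of the later enzymes, LSS, CYP51A1, NSDHL, HSD17B7 and SC5D were called lower in shDNMT3B, by 1.47, 1.82, 1.16, 1.43 and 1.48 on the log2 scale, and in the other lines only where the block added them. Set against each other directly, shDNMT3B had less HSD17B7 (−1.08, edgeR adjusted p = 0.00921) and SC5D (−0.83, edgeR adjusted p = 0.044) than shUHRF1. It had less CYP51A1, NSDHL, HSD17B7 and SC5D than shDNMT1, with log2 fold changes of −1.41 to −0.79 (edgeR adjusted p = 0.00578 to 0.0341), and LSS missed the threshold in both (edgeR adjusted p = 0.0501 and 0.0651). HSD17B7 is a keto-sterol reductase with near-identical pseudogene copies, and SC5D desaturates lathosterol. Of the early enzymes, ACAT2, MVK, MVD and FDPS were lower in shDNMT3B, by 0.98, 1.02, 0.99 and 1.01. PMVK, TM7SF2 and EBP were the sterol enzymes called in none of the 3 lines without the block. EBP had 99.8 and 49.7 CPM in shDNMT3B DMSO against 158 and 84.3 CPM in shNC DMSO libraries (−0.70 ± 0.47 (± SE, edgeR, adjusted p = 0.486)), and it varied widely between replicates in shNC.

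In the fatty acid arm the desaturases SCD and FADS2 were lower in all 3 lines. SCD had 98.0 and 94.7 CPM in shUHRF1 DMSO, 97.6 and 78.7 CPM in shDNMT1 DMSO and 65.0 and 46.6 CPM in shDNMT3B DMSO libraries, against 271 and 240.0 CPM in shNC DMSO libraries. It was called in all 3 lines, with −1.41 ± 0.18 (± SE, edgeR, adjusted p = 0.00164), −1.54 ± 0.18 (± SE, edgeR, adjusted p = 3.15e-04) and −2.20 ± 0.19 (± SE, edgeR, adjusted p = 1.71e-05), with no overlap with shNC. FADS2 was likewise called in all 3, with −1.61, −1.93 and −3.54, and in shDNMT3B its 2.96 and 3.77 CPM stood against 30.5 and 47.8 CPM in shNC DMSO libraries. FADS1 was called in shDNMT1 (−0.95) and shDNMT3B (−1.77), and ACSS2 in shDNMT3B (−0.74). FASN had 127 and 149 CPM in shUHRF1 DMSO, 147 and 161 CPM in shDNMT1 DMSO and 104 and 104 CPM in shDNMT3B DMSO libraries, against 125 and 182 CPM in shNC DMSO libraries. Its libraries overlapped those of shNC in shUHRF1 and shDNMT1 and not in shDNMT3B, and the log2 fold changes were −0.15 ± 0.24 (± SE, edgeR, adjusted p = 0.861), 0.01 ± 0.24 (± SE, edgeR, adjusted p = 1) and −0.56 ± 0.24 (± SE, edgeR, adjusted p = 0.229). ACLY and ACACA were called in none of the 3 lines without the block, ACLY with −0.17, −0.39 and −0.42. ELOVL6 had 0 counts over both shDNMT1 DMSO libraries and 17 over both shNC DMSO libraries, at least 5.64-fold lower.

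INSIG1 had 31.9 and 52.0 CPM in shUHRF1 DMSO, 57.4 and 52.9 CPM in shDNMT1 DMSO and 15.5 and 14.4 CPM in shDNMT3B DMSO libraries, against 154 and 137 CPM in shNC DMSO libraries. No library overlapped those of shNC, and in shDNMT3B its fitted change, −3.28 ± 0.23 (± SE, edgeR, adjusted p = 3.11e-06), was the lowest log2 value of the sterol genes and regulators in that line. SREBF2 had 79.4 and 104 CPM in shUHRF1 DMSO, 100 and 109 CPM in shDNMT1 DMSO and 79.7 and 82.3 CPM in shDNMT3B DMSO libraries, against 123 and 149.7 CPM in shNC DMSO libraries. It was called in shDNMT3B (−0.75 ± 0.16 (± SE, edgeR, adjusted p = 0.0203)), and in shUHRF1 and shDNMT1 it had −0.57 ± 0.16 (± SE, edgeR, adjusted p = 0.132) and −0.38 ± 0.16 (± SE, edgeR, adjusted p = 0.265), with 0.00409 and 0.0453 under the block. SREBF1 differed between the lines: it had 21.8 and 21.6 CPM in shUHRF1 DMSO and 19.0 and 18.9 CPM in shDNMT1 DMSO libraries, below the 49.2 and 38.9 CPM in shNC DMSO libraries (−1.02 ± 0.20 (± SE, edgeR, adjusted p = 0.0251) and −1.22 ± 0.20 (± SE, edgeR, adjusted p = 0.00414)), and 43.3 and 33.8 CPM in shDNMT3B DMSO libraries (−0.19 ± 0.20 (± SE, edgeR, adjusted p = 0.684)). STARD4 was called in shDNMT3B (−1.85), and TMEM97 in none of the 3 lines without the block.

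The sterol medians were −0.68, −0.61 and −1.45 in shUHRF1, shDNMT1 and shDNMT3B over shNC in DMSO, the fatty acid medians −0.23, −0.39 and −0.59, the medians of the regulators and carriers −0.57, −0.38 and −0.81, and the medians of all tested genes −0.04, −0.04 and −0.02. Both arms lay below all genes, and the sterol arm lay further below in each line. In shDNMT1 that order turned without shNC DMSO replicate 1, with a sterol median of −0.58 and a fatty acid median of −0.65. The fatty acid median of shUHRF1 was −0.40 without shNC DMSO replicate 1 or without shUHRF1 DMSO replicate 2. The ratio of the sterol sum to the fatty acid sum was 1.60 and 1.36 in shUHRF1 DMSO, 1.73 and 1.55 in shDNMT1 DMSO and 1.38 and 1.22 in shDNMT3B DMSO libraries, against 1.78 and 1.48 in shNC DMSO libraries. The libraries numbered 1 had the higher ratio in every group, and the groups overlapped with shNC in shUHRF1 and shDNMT1. Without shNC DMSO replicate 1, the library with hemoglobin counts, 8 members were called lower in shUHRF1, 9 in shDNMT1 and 17 in shDNMT3B. Other single libraries moved 2 of the counts by over 1.5 times: shUHRF1 had 4 calls without shUHRF1 DMSO replicate 1, and shDNMT1 had 4 without shDNMT1 DMSO replicate 1 and 6 without shDNMT1 DMSO replicate 2 or shNC DMSO replicate 2. Mitochondrially encoded genes held 26.6% and 9.86% of the counts in shUHRF1 DMSO, 28.0% and 12.6% in shDNMT1 DMSO and 29.0% and 14.5% in shDNMT3B DMSO libraries, against 24.4% and 9.97% in shNC DMSO libraries, so that shDNMT1 and shDNMT3B lay above shNC within each replicate number. The 16 markers of other cell types summed to 67.8 and 70.4 CPM in shDNMT3B DMSO libraries and to 20.3 to 28.2 CPM in shUHRF1 and shDNMT1 DMSO libraries, against 517 and 30.2 CPM in shNC DMSO libraries. In shDNMT3B DMSO 8 of the 16 had no count, the T cell markers CD3D and CD3E among them, and NCAM1, a marker of natural killer cells, held most of the sum, with 62.3 and 66.2 CPM against 23.5 and 26.5 CPM in shNC DMSO libraries. The part of these in the member results was not tested.

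**Figure D4:**
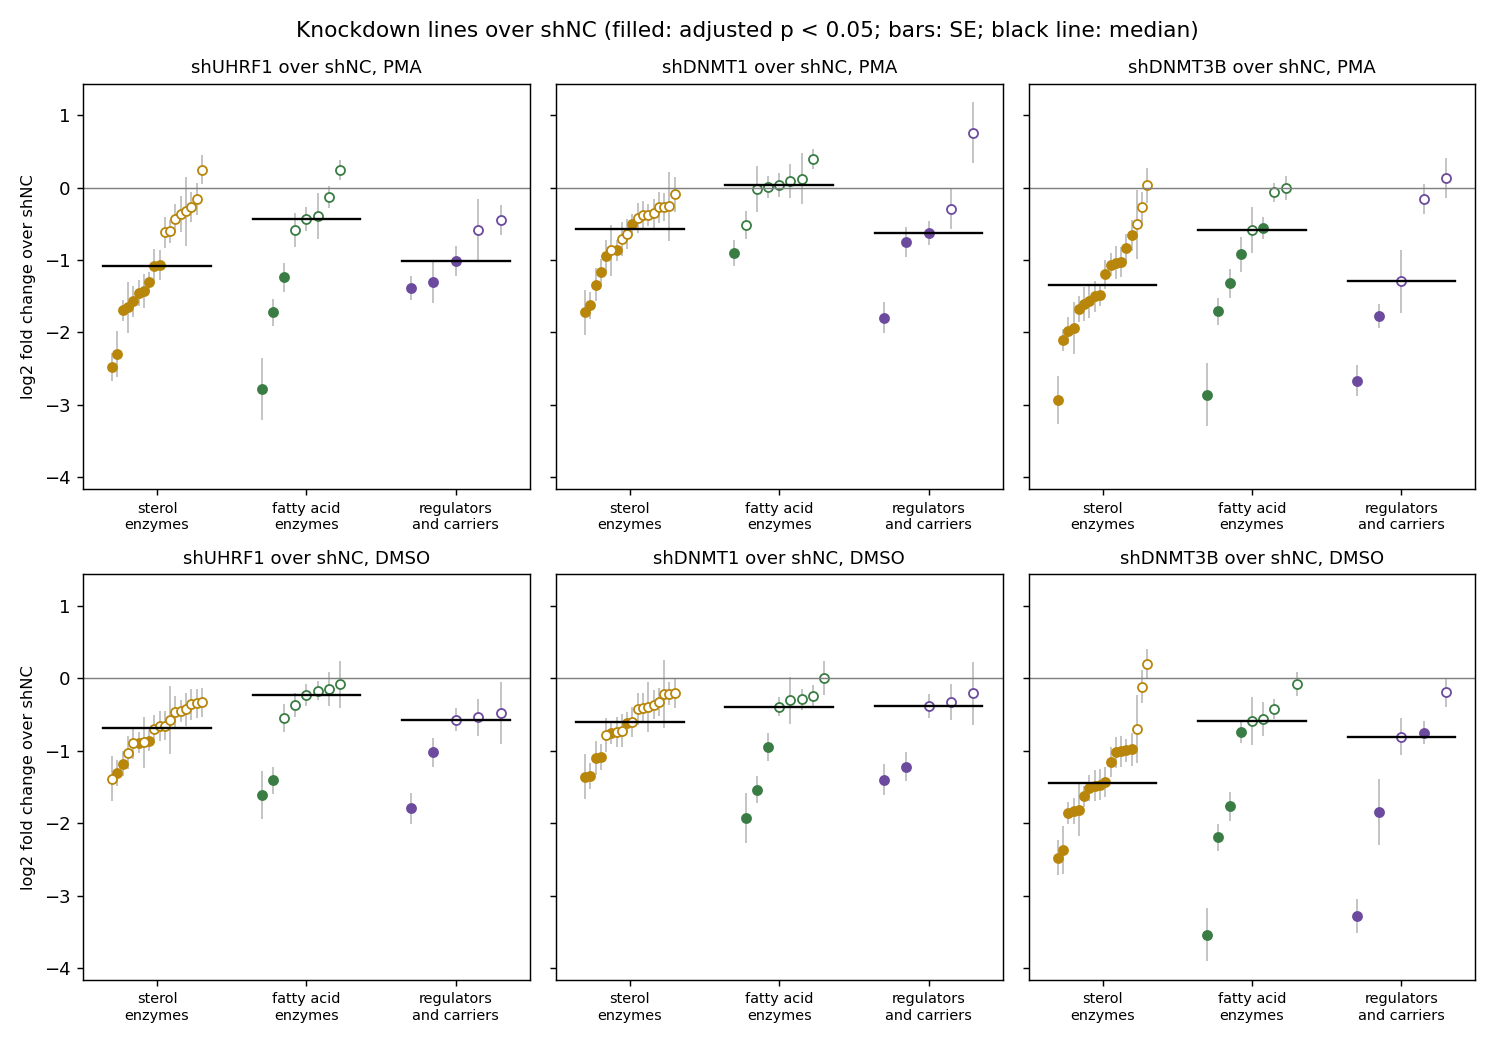
Log2 fold change over shNC (vertical axis) of the sterol enzymes, the fatty acid enzymes and the regulators and carriers in the lines labelled shUHRF1, shDNMT1 and shDNMT3B, in PMA (top) and in DMSO (bottom). Points are genes with their SE, filled where the edgeR adjusted p was under 0.05. Black lines are arm medians over all members, and ELOVL6 is not drawn. The sterol median lies below the fatty acid median in all 6 panels, furthest down at −1.45 in shDNMT3B in DMSO.

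After PMA, HMGCS1, MVK, IDI1, FDFT1, MSMO1, DHCR7, SCD, SREBF2 and INSIG1 were lower than in shNC in each of the lines labelled shUHRF1, shDNMT1 and shDNMT3B, while SQLE and LSS in shUHRF1 cells stood near shNC. In shUHRF1 PMA over shNC PMA, 16 of 32 members were called lower (all genes 1.65%). In shDNMT1 there were 11 (all genes 6.35%) and in shDNMT3B 22 (all genes 9.05%). None was called higher by edgeR (all genes 2.04%, 8.50% and 11.3%). At an unadjusted p under 0.05, 0 in shUHRF1 and 1 each in shDNMT1 and shDNMT3B were higher, and DESeq2 called 0, 1 and 0. With the replicate block, 20, 16 and 25 were lower and 0, 2 and 1 higher. Of the 16503 tested genes that fit called 1136, 2486 and 3213 lower and 1378, 2690 and 3376 higher. The block added MVD, FDPS, FASN and STARD4 in shUHRF1, ACAT2, MVD, LSS, CYP51A1 and FADS1 in shDNMT1, and EBP, LPIN1 and STARD4 in shDNMT3B, all lower, and as higher ACLY and STARD4 in shDNMT1 and ELOVL6 in shDNMT3B. These comparisons share the 2 shNC PMA libraries. Leaving out 1 library moved 2 counts by over 1.5 times: shUHRF1 had 10 without shNC PMA replicate 1, shNC PMA replicate 2 or shUHRF1 PMA replicate 1, and shDNMT1 had 6 without shNC PMA replicate 1 and 7 without shNC PMA replicate 2 or shDNMT1 PMA replicate 2.

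MSMO1 had 44.4 and 35.5 CPM in shUHRF1 PMA, 66.4 and 52.8 CPM in shDNMT1 PMA and 30.0 and 21.3 CPM in shDNMT3B PMA libraries, against 228 and 165 CPM in shNC PMA libraries. The groups lay far apart, with log2 fold changes of −2.30 ± 0.32 (± SE, edgeR, adjusted p = 0.00205), −1.72 ± 0.31 (± SE, edgeR, adjusted p = 0.00263) and −2.93 ± 0.33 (± SE, edgeR, adjusted p = 7.89e-05). DHCR7 had 3.0 and 2.85 CPM in shUHRF1 PMA, 5.97 and 4.58 CPM in shDNMT1 PMA and 4.4 and 3.90 CPM in shDNMT3B PMA libraries, against 18 and 14.7 CPM in shNC PMA libraries. It was called lower in all 3 lines, with −2.48 ± 0.20 (± SE, edgeR, adjusted p = 6.35e-05), −1.62 ± 0.19 (± SE, edgeR, adjusted p = 9.31e-05) and −1.98 ± 0.19 (± SE, edgeR, adjusted p = 3.15e-05). IDI1 had 22.4 and 17.7 CPM in shUHRF1 PMA, 35.3 and 35.9 CPM in shDNMT1 PMA and 14.6 and 15.6 CPM in shDNMT3B PMA libraries, against 65.1 and 64.7 CPM in shNC PMA libraries, with log2 fold changes of −1.70, −0.87 and −2.11. MVK, with 1.75 and 2.71 CPM in shUHRF1 PMA against 5.73 and 6.28 CPM in shNC PMA libraries, was called in all 3 lines (−1.43, −0.95 and −1.61). HMGCS1 had −1.45, −1.16 and −1.68, and FDFT1 −1.30, −0.50 and −1.49. ACAT2, CYP51A1, HSD17B7 and SC5D were called lower in shUHRF1 and shDNMT3B, between −1.94 and −1.04, and not in shDNMT1. MVD, FDPS and NSDHL were called in shDNMT3B, with −1.06, −0.66 and −0.84, and PMVK, TM7SF2 and EBP in no line without the block.

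SQLE and LSS differed among the lines. SQLE had 722 and 588 CPM in shUHRF1 PMA, 294 and 284 CPM in shDNMT1 PMA and 251 and 242 CPM in shDNMT3B PMA libraries, against 735 and 729 CPM in shNC PMA libraries. Its shUHRF1 log2 fold change was −0.16 ± 0.22 (± SE, edgeR, adjusted p = 0.818), while it was called lower in shDNMT1 and shDNMT3B, with −1.34 ± 0.23 (± SE, edgeR, adjusted p = 0.00173) and −1.57 ± 0.23 (± SE, edgeR, adjusted p = 5.36e-04). LSS had 65.8 and 91.4 CPM in shUHRF1 PMA against 59.8 and 72.9 CPM in shNC PMA libraries (0.24 ± 0.20 (± SE, edgeR, adjusted p = 0.631)), and it was called lower in shDNMT3B (−1.03 ± 0.21 (± SE, edgeR, adjusted p = 0.00412)). Set against each other directly, shDNMT1 PMA had less SQLE than shUHRF1 PMA (−1.18 ± 0.23 (± SE, edgeR, adjusted p = 0.00512)) and less LSS (−0.89 ± 0.20 (± SE, edgeR, adjusted p = 0.0148)), and so did shDNMT3B PMA (−1.41 ± 0.23 (± SE, edgeR, adjusted p = 0.00172) for SQLE and −1.27 ± 0.21 (± SE, edgeR, adjusted p = 0.00168) for LSS).

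In the fatty acid arm, SCD had 46.7 and 44.8 CPM in shUHRF1 PMA, 82.1 and 78.5 CPM in shDNMT1 PMA and 49.5 and 42.9 CPM in shDNMT3B PMA libraries, against 165 and 136 CPM in shNC PMA libraries. It was the one enzyme of this arm called lower in all 3 lines (−1.72 ± 0.19 (± SE, edgeR, adjusted p = 3.46e-04), −0.91 ± 0.18 (± SE, edgeR, adjusted p = 0.00524) and −1.70 ± 0.19 (± SE, edgeR, adjusted p = 6.74e-05)). FADS2 had 0.679 and 1.18 CPM in shUHRF1 PMA, 6.93 and 6.84 CPM in shDNMT1 PMA and 0.571 and 1.21 CPM in shDNMT3B PMA libraries, against 5.41 and 7.29 CPM in shNC PMA libraries. Its shDNMT1 libraries overlapped those of shNC (0.12 ± 0.35 (± SE, edgeR, adjusted p = 0.874)), and the other lines were called lower (−2.78 ± 0.43 (± SE, edgeR, adjusted p = 0.0042) and −2.86 ± 0.43 (± SE, edgeR, adjusted p = 6.60e-04)). FADS1 was called in shUHRF1 (−1.24) and shDNMT3B (−1.32), and FASN (−0.92) and ACSS2 (−0.56) in shDNMT3B. ACLY, ACACA and LPIN1 were called in none of the 3 lines without the block, ACLY with 0.24, 0.40 and −0.07. ELOVL6 had 7 counts over both shDNMT3B PMA libraries and 0 over both shNC PMA libraries, 2.42-fold higher when the empty group is set to 3 counts in all. The gene was called higher only with the block.

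Of the regulators, SREBF2 had 80.9 and 93.8 CPM in shUHRF1 PMA, 149 and 147 CPM in shDNMT1 PMA and 69.6 and 64.0 CPM in shDNMT3B PMA libraries, against 231 and 227 CPM in shNC PMA libraries. No group overlapped shNC, and the log2 fold changes were −1.39 ± 0.16 (± SE, edgeR, adjusted p = 6.91e-04), −0.63 ± 0.16 (± SE, edgeR, adjusted p = 0.021) and −1.78 ± 0.17 (± SE, edgeR, adjusted p = 2.58e-05). INSIG1 had 385 and 357 CPM in shUHRF1 PMA, 219 and 212 CPM in shDNMT1 PMA and 129 and 106 CPM in shDNMT3B PMA libraries, against 800.2 and 693 CPM in shNC PMA libraries (−1.01 ± 0.21 (± SE, edgeR, adjusted p = 0.0211), −1.80 ± 0.21 (± SE, edgeR, adjusted p = 1.26e-04) and −2.66 ± 0.22 (± SE, edgeR, adjusted p = 1.03e-05)). SREBF1 was called lower in shDNMT1 (−0.75), TMEM97 in shUHRF1 (−1.30), and STARD4 in no line without the block (−0.59, 0.76 and −1.29).

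The sterol medians over shNC in PMA were −1.08, −0.57 and −1.34 in shUHRF1, shDNMT1 and shDNMT3B, the fatty acid medians −0.44, 0.03 and −0.59, and the medians of all tested genes 0.02, 0.01 and 0.04. The sterol arm was again the lower one in each line. The fatty acid median of shUHRF1 was −0.90 without shUHRF1 PMA replicate 2, −0.28 without shUHRF1 PMA replicate 1 and −0.25 without shNC PMA replicate 2. That of shDNMT1 ran from −0.10 without shNC PMA replicate 1 to 0.29 without shNC PMA replicate 2. Without SQLE and LSS, the sterol enzymes summed to 462 and 374 CPM in shUHRF1 PMA, 641 and 547 CPM in shDNMT1 PMA and 394 and 336 CPM in shDNMT3B PMA libraries, against 1071 and 924 CPM in shNC PMA libraries. The fatty acid enzymes summed to 353 and 429 CPM in shUHRF1 PMA, 521 and 529 CPM in shDNMT1 PMA and 326 and 341 CPM in shDNMT3B PMA libraries, against 536 and 557 CPM in shNC PMA libraries. Proliferation genes, lower in PMA in all 4 lines (12 of 12 called), were higher in PMA than in shNC for 2 of 12 genes in shUHRF1, 10 in shDNMT1 and 10 in shDNMT3B (all genes 2.04%, 8.50% and 11.3%), with summed levels of 150.4 and 151 CPM in shUHRF1, 350.5 and 367 CPM in shDNMT1 and 350.0 and 362 CPM in shDNMT3B PMA libraries, against 135 and 134 CPM in shNC PMA libraries. Mitochondrially encoded genes held 9.54% and 3.92% of the counts in shUHRF1 PMA, 7.71% and 4.86% in shDNMT1 PMA and 19.5% and 9.35% in shDNMT3B PMA libraries, against 10.3% and 4.76% in shNC PMA libraries. Markers of other cell types summed to 195 and 167 CPM in shDNMT3B PMA against 79.0 and 74.6 CPM in shNC PMA libraries, of which NCAM1 had 177 and 153 CPM in shDNMT3B PMA against 67.0 and 64.2 CPM in shNC PMA libraries. Their part in the member results was not tested.

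Among the hairpin lines in DMSO, shDNMT3B had the most members lower than another line. There, shDNMT3B over shUHRF1 had 9 members lower and 1 higher (all genes 1.71% and 2.66%), and shDNMT3B over shDNMT1 had 11 lower and 2 higher (all genes 1.61% and 4.73%). FDFT1 (−1.0 ± 0.14 (± SE, edgeR, adjusted p = 0.00181) over shUHRF1 and −1.10 ± 0.14 (± SE, edgeR, adjusted p = 5.50e-04) over shDNMT1) and INSIG1 (−1.49 ± 0.22 (± SE, edgeR, adjusted p = 0.00197) and −1.88 ± 0.22 (± SE, edgeR, adjusted p = 2.52e-04)) were lower in both. SREBF1 was higher in shDNMT3B than in either (0.83 ± 0.20 (± SE, edgeR, adjusted p = 0.0381) over shUHRF1 and 1.03 ± 0.20 (± SE, edgeR, adjusted p = 0.0091) over shDNMT1). ELOVL6 had 15 counts over both shDNMT3B DMSO libraries (3 and 12) against 0 in shDNMT1, 4.83-fold higher by the bound, which leaves that spread out. In shDNMT1 over shUHRF1 in DMSO edgeR called 0 members, where 212 of the 16503 tested genes were lower and 25 higher. At such shares a 0 does not show that the members were alike in these lines. At an unadjusted p under 0.05, 1 member was lower, and DESeq2 called 0. With the block these 3 comparisons had 20 lower and 2 higher, 22 lower and 3 higher, and 1 lower and 1 higher. Of the 16503 tested genes that fit called 1805 lower and 1664 higher, 1611 and 1830, and 755 and 348 in the same order. Over shUHRF1, the 10 calls became 4 without shUHRF1 DMSO replicate 2 or shDNMT3B DMSO replicate 1. Over shDNMT1, the 13 calls became 5 without shDNMT3B DMSO replicate 1, 7 without shDNMT1 DMSO replicate 1, and 8 without either replicate 2.

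In PMA, shDNMT1 cells had 10 members higher and 3 lower than shUHRF1 cells (all genes 5.31% and 4.60%), the 3 lower ones being SQLE, LSS and INSIG1. FADS2 (2.90 ± 0.42 (± SE, edgeR, adjusted p = 8.41e-04)) and SC5D (1.21 ± 0.21 (± SE, edgeR, adjusted p = 0.00236)) were among the higher ones. In shDNMT3B over shUHRF1, 3 were lower (SQLE, LSS and INSIG1) and 1 higher (TMEM97), where 5.90% and 7.24% of all genes were called. In shDNMT3B over shDNMT1, edgeR called 15 lower (all genes 4.33%) and 0 higher (all genes 876 of 16503). At an unadjusted p under 0.05, 1 was higher, and DESeq2 called 0 higher. FADS2 (−2.98 ± 0.43 (± SE, edgeR, adjusted p = 0.00112)) and SREBF2 (−1.15 ± 0.16 (± SE, edgeR, adjusted p = 0.00107)) were among those lower. With the block these comparisons had 17 higher and 3 lower, 11 lower and 2 higher, and 22 lower and 1 higher. Of the 16503 tested genes that fit called 1898 higher and 1872 lower, 2681 lower and 2623 higher, and 2451 lower and 2507 higher. The 13 calls of shDNMT1 over shUHRF1 became 8 without shUHRF1 PMA replicate 2 and 7 without any other of the 4 libraries. The 15 of shDNMT3B over shDNMT1 became 4 without shDNMT3B PMA replicate 2, 5 without shDNMT3B PMA replicate 1 and 7 without either shDNMT1 PMA library.

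The PMA response itself differed from that of shNC for few members. In shUHRF1, DHCR7 was called, with a difference of log2 fold changes of −1.30 ± 0.26 (± SE, edgeR, adjusted p = 0.0397), the 1 member where 0.109% of all tested genes were called lower. In shDNMT1, 2 members had a higher response, where 5.64% of all genes did: ACLY (0.79 ± 0.19 (± SE, edgeR, adjusted p = 0.0265)) and FADS2 (2.05 ± 0.48 (± SE, edgeR, adjusted p = 0.0228)). In shDNMT3B the response of SREBF2 was lower (−1.03 ± 0.23 (± SE, edgeR, adjusted p = 0.0164)), 1 member where 1.70% of all genes were called lower. In the opposite directions edgeR called 0 members, where 122, 177 and 838 of the 16503 tested genes were called. There, 3, 0 and 3 members were at an unadjusted p under 0.05, and DESeq2 called 0. The block gave 3 higher and 9 lower members in shUHRF1, 4 higher and 0 lower in shDNMT1, and 3 higher and 2 lower in shDNMT3B. Of the 16503 tested genes it called 993 higher and 407 lower, 2116 and 958, and 2074 and 1150 in the same lines. For members higher in shDNMT1 and shDNMT3B with the block, the share was no larger than that of all genes. Without the block, the share of members higher in shDNMT1 lay near that of all genes. Without shNC DMSO replicate 1 there were 0, 1 (FADS2) and 0 calls. No setting that left out 1 library kept the call of DHCR7 or ACLY, FADS2 kept its call in 3 of 8 such settings and SREBF2 in 2 of 8.

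Genes beside the members were read from a list of the same pathway, of which some with the smallest adjusted p are named. Of 11 genes for SREBP processing and sterol sensing, edgeR called 0 in DMSO over shNC in shUHRF1, shDNMT1 or shDNMT3B. Of all 16503 tested genes it called 217, 653 and 744, so 0 of 11 does not set the list apart. In the same lines 2, 2 and 3 of the 11 were at an unadjusted p under 0.05. With the block 2, 2 and 3 were lower (all genes 1134, 1523 and 1882). In PMA over shNC, edgeR called 0 in shUHRF1, 2 higher and 2 lower in shDNMT1, and 1 higher and 3 lower in shDNMT3B. All genes had 2.04% higher and 1.65% lower, 8.50% and 6.35%, and 11.3% and 9.05%. In PMA over DMSO in shNC cells 5 of the 11 rose and 2 fell (all genes 28.4% and 26.0%), among them INSIG2 (1.18), the second INSIG, SPRING1 (1.52), a factor needed for SREBP activation, and ERLIN1 (−2.56), which takes part in sterol-driven degradation.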

How the data were processed

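RNA sequencing counts of 16 THP-1 libraries in 8 groups were used. The authors mapped reads with STAR 2.4.0b against hg38 and deposited whole-number counts per Ensembl gene, and the submitters' processing notes also name Cufflinks 2.1.1, HTSeq 0.6.1p1 and edgeR. The kit kept strand, and the strand setting of the counting is not given in the sources used here, so reads of ACAT2 and its antisense neighbour, of FADS1 and FADS2, and of genes with close pseudogenes such as HSD17B7, FDPS and IDI1 may be shared. No reads were realigned, and 0 columns were left unused.

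Genes were named by GENCODE release 44. filterByExpr (minimum count 10, minimum total 15) kept 16503 of 60676 genes, and edgeR 4.0.16 in R 4.3.3 gave TMM scaling. A single quasi-likelihood fit, with robust estimates, held all 8 groups and had 8 residual degrees of freedom. P-values were adjusted by the Benjamini-Hochberg method across every tested gene, and a gene was called under 0.05 with no fold limit. Log2 CPM used a prior count of 2. The test was checked on simulated data. Members, lists and comparisons were chosen with earlier results of these data known. All 32 members could be named, up to 4 genes of any other list and comparison with the smallest adjusted p among those called, and the hairpin targets. CD36 and MLXIPL also fall under this rule, and 1 list of other sterol enzymes is not reported here. Replicate numbers paired the samples: all 28 pairs of groups had a correlation of same-numbered deviations over 0.1 (0.220 to 0.508), so fits with the replicate number as a block, with 7 residual degrees of freedom, are given beside the counts of calls they change. Other alternatives were DESeq2 1.42.0, upper-quartile and DESeq2-type factors, mitochondrial genes left out, no filter, only the libraries compared, edgeR's exact test with 3 DEGES rounds, a centre at the median of all genes, and each library left out in turn. Tables and figures used Python 3.11.15, pandas 2.3.3, NumPy 2.4.6 and matplotlib 3.10.9.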

Additional observations from a re-analysis of the deposited data

Results flagged for a closer look

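In 4 member genes the response to PMA in a hairpin line differed from that in shNC by the test of the difference itself. DHCR7 fell further in shUHRF1 cells, with a difference of −1.30 ± 0.26 (± SE, edgeR, adjusted p = 0.0397). In shDNMT1 cells the differences were 0.79 ± 0.19 (± SE, edgeR, adjusted p = 0.0265) for ACLY, which had 204 and 207 CPM in PMA against 169 and 166 CPM in DMSO in shDNMT1 cells and 155 and 158 CPM in PMA against 216 and 223 CPM in DMSO in shNC cells, and 2.05 ± 0.48 (± SE, edgeR, adjusted p = 0.0228) for FADS2. SREBF2 responded less in shDNMT3B cells, with a difference of −1.03 ± 0.23 (± SE, edgeR, adjusted p = 0.0164). With the block, the edgeR values of adjusted p were 0.0014, 9.07e-04, 3.80e-06 and 1.63e-04 for DHCR7, ACLY, FADS2 and SREBF2. Of all tested genes, 0.109% had a lower response in shUHRF1, 5.64% a higher one in shDNMT1 and 1.70% a lower one in shDNMT3B. These member calls were lost in most fits with 1 library left out, as given above. Only 2 libraries stood behind each group.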

How the results depend on the processing

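Under none of the alternatives did a called member change direction. Settings that move the number of called members by over 1.5 times were these, and the cause was not tested. With the replicate block, which leaves less spread, 22 members were called in shUHRF1 over shNC in DMSO, 20 in shDNMT1 over shNC in DMSO and 18 in shDNMT1 over shNC in PMA. Among all tested genes the calls rose as well, to 1891, 2240 and 5176 from 217, 653 and 2450. The differences of the PMA response had 12 (shUHRF1), 4 (shDNMT1) and 5 calls (shDNMT3B) with the block. All tested genes then had 1400, 3074 and 3224 calls. Between lines in DMSO the block gave 2 calls for shDNMT1 over shUHRF1, 22 for shDNMT3B over shUHRF1 and 25 for shDNMT3B over shDNMT1, and in PMA 20, 13 and 23 in the same order. With the block and without shNC DMSO replicate 1, an alternative chosen after seeing the data, 16 were called in shUHRF1 in DMSO and 7, 4 and 3 in the 3 differences. Fits of only the libraries compared called 0 in shUHRF1, 2 in shDNMT1 and 9 in shDNMT3B over shNC in DMSO, 0 and 1 in the differences of shUHRF1 and shDNMT1, 0 in shDNMT3B over shUHRF1 and 5 in shDNMT3B over shDNMT1 in DMSO, and 7 in shDNMT1 over shUHRF1 in PMA, with far fewer residual degrees of freedom by construction. DESeq2 called 3 members in the difference of shUHRF1. Without a filter on low counts there were 0 in that difference and 1 in shDNMT1 over shUHRF1 in DMSO. With 1 library left out, its partner taken to vary like the other groups, shUHRF1 over shNC had 4 to 8 calls in DMSO and 10 to 12 in PMA, and shDNMT1 over shNC 4 to 9 in DMSO and 6 to 8 in PMA. The differences had 0 in every such fit of shUHRF1, 0 to 1 in shDNMT1 and 0 to 1 in shDNMT3B. In DMSO shDNMT3B had 4 to 9 calls over shUHRF1 and 5 to 8 over shDNMT1. In PMA shDNMT1 over shUHRF1 had 7 to 8 and shDNMT3B over shDNMT1 4 to 7. In the promoters, the window of the 250 bases before the start left CCAAT in 21 of 28 member genes and the E-box in 2. Low counts limit ELOVL6, and 2 libraries per group limit every value.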

Other observations

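Most genes of a list for bringing cholesterol into the cell, storing it and exporting it from lysosomes rose with PMA. Of 9 tested, 8 were called higher in each line (all genes 29.4% in shUHRF1, 28.6% in shDNMT1, 25.2% in shDNMT3B and 28.4% in shNC cells). The other, SCARB1, a receptor for high-density lipoprotein, was called lower in shUHRF1 (−1.41), shDNMT1 (−0.52) and shNC cells (−1.73) and had −0.29 in shDNMT3B cells (edgeR adjusted p = 0.166). NPC1, the lysosomal cholesterol exporter, had on the log2 scale a change of 3.78 ± 0.17 (± SE, edgeR, adjusted p = 2.17e-09) in shNC cells, and SOAT1, which esterifies cholesterol for storage, had 410.1 and 328 CPM in shNC PMA against 55.9 and 43.8 CPM in shNC DMSO libraries (2.89 ± 0.23 (± SE, edgeR, adjusted p = 4.08e-07)). CD36, a scavenger receptor for oxidised lipoproteins and fatty acids, had 169 and 172 CPM in shUHRF1 PMA, 372 and 435 CPM in shDNMT1 PMA and 463 and 455 CPM in shDNMT3B PMA libraries, against 40.0 and 41.5 CPM in shNC PMA libraries. Its PMA response exceeded that of shNC by 1.44 ± 0.29 (± SE, edgeR, adjusted p = 0.0415) in shUHRF1, 3.76 ± 0.30 (± SE, edgeR, adjusted p = 1.42e-05) in shDNMT1 and 4.08 ± 0.30 (± SE, edgeR, adjusted p = 1.09e-05) in shDNMT3B cells. NPC1 stood lower than in shNC in PMA in all 3 lines (−0.94, −0.69 and −1.23). The liver X receptor list (9 tested) had 6 genes higher and 2 lower with PMA in shNC cells (all genes 28.4% and 26.0%), among them the receptor NR1H3 (3.30), the cholesterol efflux pump ABCA1 (3.93) and the phospholipid transfer protein PLTP (−3.12).

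MLXIPL, which encodes the carbohydrate-response factor ChREBP, an activator of fatty acid synthesis genes, was higher in each line than in shNC in both treatments. In DMSO it had 9.10 and 6.47 CPM in shUHRF1, 5.49 and 5.87 CPM in shDNMT1 and 10.3 and 9.52 CPM in shDNMT3B libraries, against 2.74 and 3.08 CPM in shNC libraries (1.42 ± 0.21 (± SE, edgeR, adjusted p = 0.00384), 0.96 ± 0.21 (± SE, edgeR, adjusted p = 0.0197) and 1.76 ± 0.21 (± SE, edgeR, adjusted p = 2.43e-04)). In PMA it had 21.6 and 26.4 CPM in shUHRF1, 42.4 and 39.7 CPM in shDNMT1 and 53.3 and 51.8 CPM in shDNMT3B libraries, against 5.57 and 6.93 CPM in shNC libraries (1.94 ± 0.20 (± SE, edgeR, adjusted p = 2.37e-04), 2.72 ± 0.20 (± SE, edgeR, adjusted p = 3.94e-06) and 3.08 ± 0.20 (± SE, edgeR, adjusted p = 2.62e-06)). No group overlapped shNC, and the direction was opposite to that of most SREBP targets in the same libraries. MLXIPL was 1 of 27 tested genes of a list of other fatty acid and glycerolipid synthesis. In DMSO 1, 2 and 1 of the list were called higher (all genes 28, 94 and 267 of 16503) and 1, 1 and 1 lower (all genes 189, 559 and 477). In PMA 2, 2 and 1 were higher (all genes 2.04%, 8.50% and 11.3%) and 0, 5 and 9 lower (all genes 1.65%, 6.35% and 9.05%).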
